A study of Mus musculus with 3 samples.

Results

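The 9 cytokine receptor genes followed here, Il4ra, Il21r, Il2rg, Il10ra, Il10rb, Ifngr1, Ifngr2, Ifnar1 and Ifnar2, were found by their symbols among 32285 counted mouse genes, 1 row each, and all 9 passed the filter on low counts. Their RNA was read in single splenic B cells, by droplet-based 3′ sequencing that counts captured molecules by unique molecular identifiers (UMIs), from mice that had received sheep red blood cells (SRBCs) once, 10 days earlier, to induce germinal centers (GCs). There was 1 library for each of 3 genotypes, all on a mixed B6/129 background. Igκ-BCL2 mice carry a human BCL2 cassette with its own P1/P2 promoters, knocked in at the Igκ light chain locus in place of the Jκ region, next to the Eκ enhancer. 3′RR-BCL2 mice carry the same cassette as a randomly integrated transgene under the core 3′ regulatory region of the Ig heavy chain locus, and WT mice carry neither. The study's methods describe magnetically sorted B cells for all 3 sets, whereas the deposited labels call the WT cells sorted B cells and those of both BCL2 genotypes whole tissue cells. For these libraries neither gives the age or number of the animals.

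A cytokine receptor is built of chains that each bring a Janus kinase (JAK) to the membrane, and the kinases pass the signal on to STAT transcription factors. In B cells, IL-4 and IL-21 from T follicular helper cells act through the Il4ra and Il21r chains, which both pair with the common gamma chain, Il2rg, and signal mainly through STAT6 and STAT3. Il10ra binds IL-10 and pairs with Il10rb, a chain that is shared with other cytokines. Ifngr1 and Ifngr2 form the receptor of interferon gamma, and Ifnar1 and Ifnar2 form the receptor of type I interferons, whose signal involves STAT2 and IRF9.

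Some of these genes are neighbors on the chromosome. By the GENCODE annotation of GRCm38, Il4ra (chr7:125552120-125579474) and Il21r (chr7:125603429-125633570) lie on the plus strand with 23954 bases and no other protein-coding gene between them. On chromosome 16, Ifnar2 (chr16:91372783-91405589), Il10rb (chr16:91406164-91425834), Ifnar1 (chr16:91485238-91507441) and Ifngr2 (chr16:91547072-91565623) follow each other in this order, also on the plus strand. The gaps are 574, 59403 and 39630 bases, and an annotated gene, Gm21970, overlaps the stretch of Ifnar2 and Il10rb, so that reads shared with it could blur the levels of both. Il2rg is on the X chromosome (chrX:101264378-101268255), Il10ra on chromosome 9 (chr9:45253837-45269149) and Ifngr1 on chromosome 10 (chr10:19591949-19610229). Of the 9 genes, 7 had a promoter window of 300 bases, from 250 before to 50 after the start, in the RefSeq table for GRCm38.p6. The windows of the chromosome 7 pair and of 3 of the chromosome 16 genes are shown because GC cells separated these neighborhoods. They are written 5′ to 3′ along the gene, with capitals on matches to 4 motifs searched on both strands. These were TTC and GAA with 3 bases between them (TTCNNNGAA) or with 4, as STAT dimers recognize them, GAAA followed by GAAA with any 2 bases between them, as in interferon response elements, and CCGGAAGT, the core of ETS sites.
Il4ra: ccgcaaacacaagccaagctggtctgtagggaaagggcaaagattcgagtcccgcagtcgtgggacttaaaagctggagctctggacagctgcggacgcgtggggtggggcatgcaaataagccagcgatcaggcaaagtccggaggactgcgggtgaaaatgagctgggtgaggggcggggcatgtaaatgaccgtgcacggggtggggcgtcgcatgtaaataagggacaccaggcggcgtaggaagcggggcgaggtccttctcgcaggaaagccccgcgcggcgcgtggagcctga
Il21r: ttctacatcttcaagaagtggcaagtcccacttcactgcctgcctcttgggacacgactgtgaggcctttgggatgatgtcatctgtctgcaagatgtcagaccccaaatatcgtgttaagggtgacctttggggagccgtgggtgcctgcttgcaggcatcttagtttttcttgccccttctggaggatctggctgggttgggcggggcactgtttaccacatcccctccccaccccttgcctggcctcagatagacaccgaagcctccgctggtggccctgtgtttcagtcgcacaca
Ifnar2: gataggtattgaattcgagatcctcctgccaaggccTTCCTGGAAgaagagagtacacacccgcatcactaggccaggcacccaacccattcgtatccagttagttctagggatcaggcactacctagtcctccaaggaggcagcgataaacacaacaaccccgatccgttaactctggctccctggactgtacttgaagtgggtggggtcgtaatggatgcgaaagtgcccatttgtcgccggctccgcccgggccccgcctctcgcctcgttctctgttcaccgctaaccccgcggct
Ifnar1: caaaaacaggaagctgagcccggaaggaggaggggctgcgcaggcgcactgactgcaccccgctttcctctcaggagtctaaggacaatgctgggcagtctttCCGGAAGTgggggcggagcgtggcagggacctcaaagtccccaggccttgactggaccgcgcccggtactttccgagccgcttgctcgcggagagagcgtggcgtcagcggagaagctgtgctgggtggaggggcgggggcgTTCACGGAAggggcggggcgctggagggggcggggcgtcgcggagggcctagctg
Ifngr2: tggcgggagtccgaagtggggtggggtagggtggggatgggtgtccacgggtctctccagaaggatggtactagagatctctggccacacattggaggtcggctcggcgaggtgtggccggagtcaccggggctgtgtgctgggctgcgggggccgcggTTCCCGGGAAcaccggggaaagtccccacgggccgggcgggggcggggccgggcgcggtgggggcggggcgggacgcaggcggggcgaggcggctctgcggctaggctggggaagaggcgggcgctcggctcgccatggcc
These windows span chr7:125552021-125552320, chr7:125603179-125603478, chr16:91372533-91372832, chr16:91484965-91485264 and chr16:91546809-91547108, all on the plus strand. No matches overlapped. Il4ra, Il21r, Il2rg and Ifngr1 held no match. Ifnar2 and Ifnar1 each held 1 TTCNNNGAA, which 8.3% of all 32851 windows of this length held, and Ifngr2 held 1 of the motif with 4 bases between, held by 6.95%. Ifnar1 also held CCGGAAGT, found in 3.89% of windows, and none of the 7 held the GAAA pair, found in 3.44%. The CpG dinucleotides numbered 25 in the window of Il4ra, 7 in Il21r, 18 in Ifnar2, 26 in Ifnar1, 31 in Ifngr2, 14 in Ifngr1 and 3 in Il2rg, against a median of 7 over all windows. A match is a description of the letters, not a bound site.

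After the study's filters and removal of cells with T cell or macrophage markers, 6242 Igκ-BCL2, 6560 3′RR-BCL2 and 9930 WT cells were left, and the median UMIs per cell were 4838, 5291.5 and 5031.5 in this order. Pairs of libraries shared 9 to 14 barcodes. Xist, made from the inactive X, gave 80261 UMIs in 3′RR-BCL2 against 6 in Igκ-BCL2 and 9 in WT, so that sex and genotype cannot be told apart for 3′RR-BCL2. Clusters were made without the receptor genes and the gene lists used below, and named by marker genes. The cells used here were resting-like (3201 Igκ-BCL2, 3149 3′RR-BCL2 and 6189 WT cells), transitional-like, marginal zone-like, activated-like (led by Srm and Ccnd2), IFN-activated-like (led by Ifit3 and Rsad2), GC-like (350, 597 and 85 cells), dividing-like (23, 109 and 67 cells) and plasma-marker (96, 121 and 71 barcodes). The leading genes of the resting-like cluster held 2 resting, 2 B-1 or memory and 2 macrophage markers, Lyz2 first, and 9 of 10 resting markers were higher in it than in the rest. Of GC-like cells, 86.9% in Igκ-BCL2, 90.3% in 3′RR-BCL2 and 74.1% in WT had UMIs for 2 or more of 8 GC genes such as S1pr2 and Rgs13. The corresponding shares of resting-like cells were 0.469%, 1.75% and 0.0485%.

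GC-like cells differed from resting-like cells in all but the chromosome 7 pair by lower receptor RNA. Levels are UMIs of a gene per 1000000 UMIs of the cells of a stage (CPM), and the tests of stages used sums per stage and library with the library as a block (edgeR quasi-likelihood, adjusted over 10046 genes), so that the contrast is an average over 3 genotypes. Against resting-like cells, 7 of 9 receptor genes were lower in GC-like cells, where 21.1% of all genes tested were lower, and 1 was higher, where 23.6% were higher. The median log2 ratio of the 9 genes was -0.90, and that of all genes -0.0031.

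**Figure D1:**
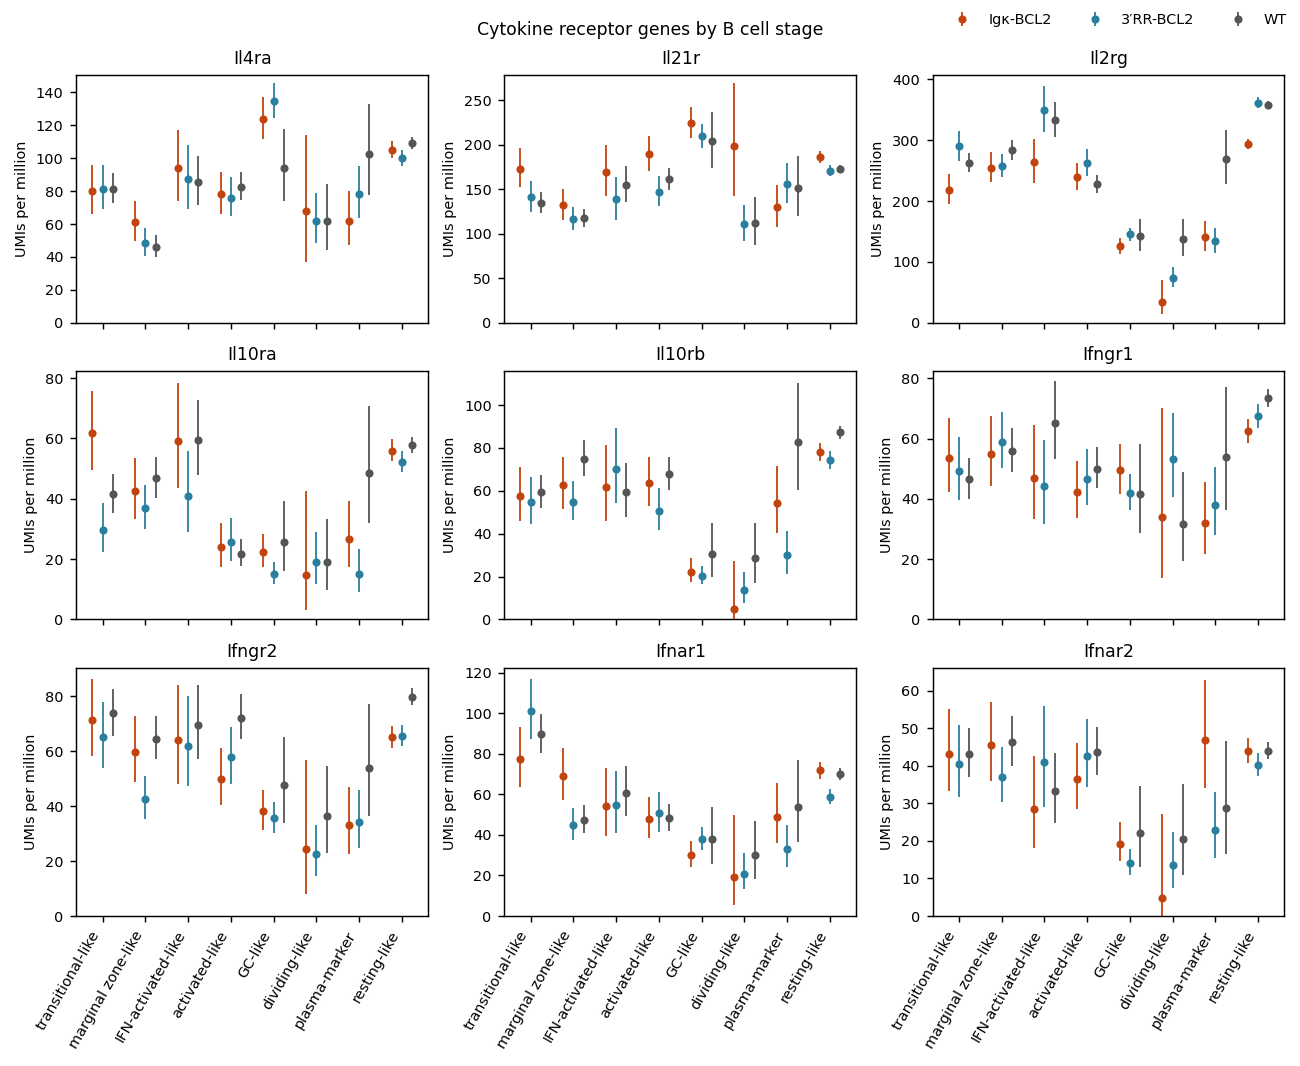
CPM (UMIs per 1000000, vertical axes, from 0) of each receptor gene in 8 B cell stages (horizontal axis), 1 point per library with its exact 95% Poisson interval. Il4ra and Il21r stand highest in GC-like cells on average, whereas Il2rg, Il10ra, Il10rb, Ifngr1, Ifngr2, Ifnar1 and Ifnar2 in GC-like cells lie below all 3 resting-like points.

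Il21r, the chain that binds IL-21, was at 225 CPM in Igκ-BCL2, 209.7 in 3′RR-BCL2 and 204 in WT GC-like cells, against 186, 170.6 and 173 in resting-like cells of the same libraries. The 3 GC-like values lay above the 3 resting-like values. The log2 ratio was 0.27 ± 0.09 (SE), with an edgeR adjusted p of 0.013. Without the Igκ-BCL2 library it was 0.27 with an adjusted p of 0.057. Il21r was the only member that rose in GC-like cells under the main test.

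Il4ra, the chain that binds IL-4, was at 124 CPM in Igκ-BCL2, 134.6 in 3′RR-BCL2 and 94.1 in WT GC-like cells, against 105.1, 100.2 and 109.4 in resting-like cells. Both BCL2 libraries had more Il4ra in GC-like cells, and the ranges overlapped because the WT value was below its resting-like level, by a log2 ratio of -0.22 whose counting interval (-0.56 to 0.11) included 0. The log2 ratio was 0.21 ± 0.10 and did not pass the test (edgeR adjusted p = 0.088). Without the WT library, whose GC-like sum held 77 UMIs of Il4ra, it was 0.33 with an adjusted p of 0.0082.

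Il2rg, the common gamma chain that both of these pair with, was at 126 CPM in Igκ-BCL2, 145 in 3′RR-BCL2 and 142 in WT GC-like cells, against 294, 361 and 358 in resting-like cells. The groups were far apart in every library, and the log2 ratio was -1.27 ± 0.16 (edgeR adjusted p = 6.5e-08). Of the chains of the IL-4 and IL-21 receptors, only the shared one was called lower.

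Both chains of the IL-10 receptor fell in GC-like cells. Il10ra, which binds the cytokine, was at 22.3 CPM in Igκ-BCL2, 15 in 3′RR-BCL2 and 25.7 in WT GC-like cells, against 56, 52.3 and 57.8 in resting-like cells. Its log2 ratio was -1.50 ± 0.15 (edgeR adjusted p = 3.6e-12). Il10rb, the shared chain, was at 22.3, 20.3 and 30.5 CPM in Igκ-BCL2, 3′RR-BCL2 and WT GC-like cells, against 78.1, 74.3 and 87.3 in resting-like cells. At -1.76 ± 0.16 (edgeR adjusted p = 4.7e-12) it had the lowest log2 ratio of the 9 genes in this stage.

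The interferon gamma receptor chains fell as well, with log2 ratios nearer to 0. Ifngr1, which binds the cytokine, was at 49.5 CPM in Igκ-BCL2, 42.1 in 3′RR-BCL2 and 41.5 in WT GC-like cells, against 62.4, 67.4 and 73.3 in resting-like cells, with a log2 ratio of -0.56 ± 0.12 (edgeR adjusted p = 1.0e-04). Ifngr2, the partner that completes the receptor, was at 38.1, 35.5 and 47.6 CPM in Igκ-BCL2, 3′RR-BCL2 and WT GC-like cells, against 65.1, 65.6 and 79.7 in resting-like cells, a log2 ratio of -0.80 ± 0.11 (edgeR adjusted p = 2.0e-08). For neither gene did the GC-like and resting-like values overlap.

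The type I interferon receptor chains also fell. Ifnar1 was at 30.2 CPM in Igκ-BCL2, 38 in 3′RR-BCL2 and 37.9 in WT GC-like cells, against 71.8, 58.8 and 69.9 in resting-like cells (log2 ratio -0.90 ± 0.13, edgeR adjusted p = 1.7e-07). Ifnar2 was at 19.2, 14.2 and 22 CPM in Igκ-BCL2, 3′RR-BCL2 and WT GC-like cells, against 44, 40.3 and 44.1 in resting-like cells (log2 ratio -1.28 ± 0.16, edgeR adjusted p = 4.0e-09). All 4 neighbors on chromosome 16 were therefore lower in GC-like cells, whereas neither neighbor on chromosome 7 was. The 7 lower calls held whichever library was left out, although without the 3′RR-BCL2 library 1197 of all genes were called lower in GC-like cells, against 2121 with it.

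A share of RNA and a number of molecules per cell are different scales, as GC-like cells held more UMIs, with a median per cell of 8057.5 in Igκ-BCL2, 7405 in 3′RR-BCL2 and 9298 in WT, against 4674, 4948 and 4801 in resting-like cells. Per 100 cells, Il21r gave 183 ± 15.5 UMIs in GC-like cells and 94.7 ± 1.06 in resting-like cells (SD, n = 3 libraries each), and Il4ra 100.1 ± 8.46 and 56.3 ± 2.92. The groups did not overlap for either, also within WT alone (90.6 and 59.7 for Il4ra). Il2rg gave 119 ± 16.3 UMIs per 100 GC-like cells and 182 ± 26.6 per 100 resting-like cells, and Il10rb 21.4 ± 7.09 and 42.9 ± 4.05. Ifngr1, at 38.2 ± 4.22 and 36.4 ± 3.97, and Ifngr2, at 35.2 ± 9.38 and 37.7 ± 5.16, overlapped between the stages on this scale. So did Ifnar1, at 30.6 ± 5.68 and 35.8 ± 3.01, whereas Il10ra, at 18.4 ± 6.41 and 29.7 ± 1.55, and Ifnar2, at 16.1 ± 4.98 and 23.0 ± 0.944, did not. Values per cell were not tested.

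Markers of other cells were read beside these results. All 12 GC markers were found in each library's GC-like cells, and their summed level was 1449 to 1704 CPM in GC-like cells and 63 to 87.6 in resting-like cells. Of 13 plasma cell markers, 11 to 12 were found in GC-like cells, with a summed level of 1539 to 2487 CPM, against 663 to 824 in resting-like cells, and Jchain made up 554 to 1450.1 of it in GC-like cells. Of 11 macrophage markers, 5 to 6 were found in GC-like cells at a summed 12.9 to 20.8 CPM, against 9 to 11 at 37.4 to 128 in resting-like cells, where Lyz2 ranged between 2.49 in Igκ-BCL2 and 69.8 in WT. Of 7 T cell markers, 1 to 3 were found in GC-like cells, at a summed 41.2 to 79.4 CPM, nearly all of it Lck, while Cd3e, Cd4 and Cd8a were at 0. In resting-like cells 4 to 5 were found, at 12.7 to 17.2. The part of the plasma cell, macrophage and T cell markers in the receptor results was not tested.

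**Figure D2:**
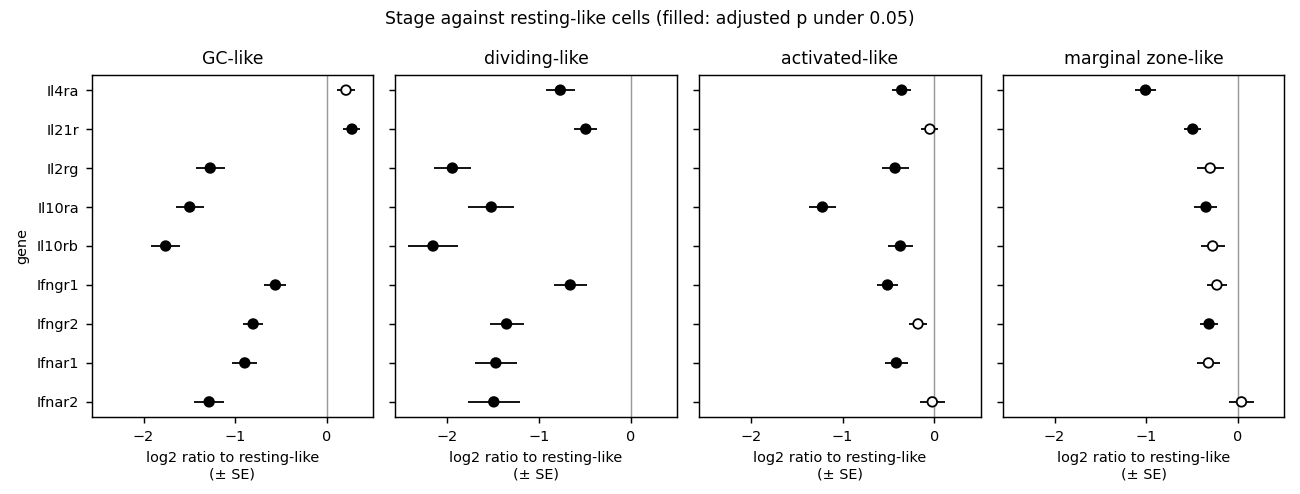
Log2 ratio to resting-like cells (horizontal axes, edgeR, bars ± SE) of the 9 receptor genes (vertical axis) in GC-like, dividing-like, activated-like and marginal zone-like cells, filled where the adjusted p was under 0.05. Il4ra is at 0.21 in GC-like and at -1.01 in marginal zone-like cells, and all 9 genes are lower in dividing-like cells.

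Dividing-like cells, led by Mki67, Pclaf and Stmn1, were lower than resting-like cells in all 9 receptor genes, where 23.2% of all genes tested were lower. The share of them with at least 2 of 8 GC genes was 95.7% in Igκ-BCL2, 91.7% in 3′RR-BCL2 and 56.7% in WT. Il10rb had the lowest ratio (log2 -2.16 ± 0.27, edgeR adjusted p = 6.9e-09), at 4.85 CPM in Igκ-BCL2, 13.5 in 3′RR-BCL2 and 28.5 in WT. Il2rg followed (log2 -1.94 ± 0.20, edgeR adjusted p = 1.6e-09) at 34, 73.8 and 138 CPM in the 3 libraries in the same order. The spread between libraries was wide for both, and the Igκ-BCL2 values rest on 23 cells. Il4ra was at 68, 62.1 and 61.8 CPM in Igκ-BCL2, 3′RR-BCL2 and WT, with a log2 ratio of -0.77 ± 0.16 (edgeR adjusted p = 4.2e-05). Its share of RNA was thus lower in dividing-like cells, whereas in GC-like cells it was not called. Il21r was at 199, 111 and 112 CPM, with a log2 ratio of -0.49 ± 0.12 (edgeR adjusted p = 8.4e-04), and was no longer called without the 3′RR-BCL2 library (-0.29, adjusted p = 0.16). In Igκ-BCL2 it was above its resting-like level of 186 CPM, while in 3′RR-BCL2 and WT it was below theirs, 170.6 and 173. With classes made from markers alone, Il4ra (-0.35, adjusted p = 0.095) and Il21r (-0.26, adjusted p = 0.13) were not called in dividing-like cells. Ifngr1 (-0.66 ± 0.18) was no longer called without WT (-0.47, adjusted p = 0.059). The other 4 genes, Il10ra, Ifngr2, Ifnar1 and Ifnar2, had log2 ratios of -1.35 to -1.52. The difference between dividing-like and GC-like cells was not tested. Dividing-like cells held a median of 8959 to 10596 UMIs. Per 100 cells Il21r was at 132 ± 39.9 UMIs, against 94.7 ± 1.06 in resting-like cells (SD, n = 3 libraries each), without overlap. Il4ra, at 60.8 ± 2.55 and 56.3 ± 2.92, and Ifngr1, at 38.1 ± 13.9 and 36.4 ± 3.97, overlapped on this scale. The other genes had lower means per cell than resting-like cells.

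In activated-like cells 6 of 9 receptor genes were lower, where 25.5% of all genes were lower, and none was higher. Il10ra stood apart. It was at 23.9 CPM in Igκ-BCL2, 25.8 in 3′RR-BCL2 and 21.7 in WT activated-like cells, against 56, 52.3 and 57.8 in resting-like cells (log2 -1.22 ± 0.14, edgeR adjusted p = 1.3e-10). These values are close to those in GC-like cells, with overlapping ranges. Its partner Il10rb was at 63.5, 50.7 and 67.8 CPM in the same libraries (log2 -0.37 ± 0.13, edgeR adjusted p = 0.019), and the difference between the chains was not tested. Ifngr1 (-0.51), Il2rg (-0.43), Ifnar1 (-0.41) and Il4ra (-0.36) were lower as well, while Il21r (-0.05), Ifnar2 (-0.02) and Ifngr2 (-0.18) did not pass the test. Left-out libraries ended several of the smaller calls. Il10rb had an adjusted p of 0.063 without WT, 0.108 without Igκ-BCL2 and 0.11 without 3′RR-BCL2. Without Igκ-BCL2 the adjusted p was 0.074 for Il2rg, 0.067 for Il4ra and 0.054 for Ifnar1, which also reached 0.13 without WT. The calls of Il10ra and Ifngr1 held whichever library was left out. With classes made from markers alone, Il10ra kept its call at -0.23 (adjusted p = 0.022). The other 5 calls ended, with Ifngr1 at -0.02 (adjusted p = 0.94), Il4ra at -0.11, Ifnar1 at -0.09, Il10rb at -0.07 and Il2rg at 0.03. Activated-like cells held a median of 6684 to 6698 UMIs. Per 100 cells Il10ra was at 18.4 ± 1.88 UMIs, against 29.7 ± 1.55 in resting-like cells (SD, n = 3 libraries each), without overlap. For Il4ra, Il2rg, Il10rb, Ifnar1 and Ifngr1 the ranges overlapped on this scale. Il21r, at 128 ± 17.9 and 94.7 ± 1.06, was higher per cell without overlap.

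Marginal zone-like cells, led by Cd9 and Fcrl5, had the lowest Il4ra of the named stages. Of 9 receptor genes 4 were lower, where 9.14% of all genes were lower, and none was higher. Il4ra was at 60.9 CPM in Igκ-BCL2, 48.5 in 3′RR-BCL2 and 46.3 in WT marginal zone-like cells, against 105.1, 100.2 and 109.4 in resting-like cells (log2 -1.01 ± 0.11, edgeR adjusted p = 1.3e-10). Il21r, its neighbor on chromosome 7, was at 132, 116 and 117 CPM in the same libraries (log2 -0.49 ± 0.10, edgeR adjusted p = 6.1e-05). Il10ra (-0.35, adjusted p = 0.042) and Ifngr2 (-0.32, adjusted p = 0.021) passed by less. Il10ra lost its call whichever library was left out (adjusted p 0.13 to 0.27), and Ifngr2 was not called without 3′RR-BCL2 (0.45) or without WT (0.13). With classes made from markers alone only Il4ra kept its call, and Il21r was at -0.34 (adjusted p = 0.070). Ifnar1 (-0.32, adjusted p = 0.057) was called without Igκ-BCL2 (-0.43, adjusted p = 0.025). Ifnar2 was at 45.6, 37.2 and 46.3 CPM, with a log2 ratio of 0.04. Marginal zone-like cells held a median of 8504.5 to 8987 UMIs, and per 100 cells Il4ra was at 47.3 ± 6.45 UMIs, against 56.3 ± 2.92 in resting-like cells (SD, n = 3 libraries each), with ranges that overlapped. The other genes had higher means per cell than resting-like cells. Il21r gave 111 ± 6.11 UMIs per 100 marginal zone-like cells and 94.7 ± 1.06 per 100 resting-like cells without overlap, Il2rg 242 ± 14.0 and 182 ± 26.6, and Ifngr1 51.8 ± 4.06 and 36.4 ± 3.97. For Il21r the share of RNA was thus lower and the number per cell higher.

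Transitional-like cells, led by Sox4, Myb and Wfdc21, were lower in 6 of 9 receptor genes, where 9.81% of all genes were lower, and higher in 1, where 9.16% were higher. Il10rb (log2 -0.59 ± 0.14, edgeR adjusted p = 0.0017), Ifngr1 (-0.57 ± 0.12, edgeR adjusted p = 3.4e-04) and Il4ra (-0.44 ± 0.11, edgeR adjusted p = 0.0016) were called lower whichever library was left out. With classes made from markers alone none of the 6 lower calls remained, these 3 being at -0.17, -0.18 and -0.15 (adjusted p 0.58 to 0.68), and Il10rb was not called without the library block (adjusted p = 0.14). Il4ra was at 80.2 CPM in Igκ-BCL2, 81.5 in 3′RR-BCL2 and 81.6 in WT transitional-like cells, below all 3 resting-like values. Il2rg (-0.48), Il10ra (-0.47) and Il21r (-0.33) were called lower in the fit of all 3 libraries. For Il10ra the libraries went different ways, as it was at 61.7 CPM in Igκ-BCL2, 29.5 in 3′RR-BCL2 and 41.4 in WT, against 56, 52.3 and 57.8 in resting-like cells. Il2rg lost its call without Igκ-BCL2 (adjusted p = 0.16), and Il10ra and Il21r lost theirs without 3′RR-BCL2 (0.23 and 0.079) or WT (0.17 each). Ifnar1 was the member that rose, at 77.4 CPM in Igκ-BCL2, 101.1 in 3′RR-BCL2 and 89.6 in WT, against 71.8, 58.8 and 69.9 in resting-like cells (log2 0.35 ± 0.12, edgeR adjusted p = 0.024). This call was lost without 3′RR-BCL2 (0.22, adjusted p = 0.36) and without WT (0.39, adjusted p = 0.12). Its partner Ifnar2 was at 43.2, 40.5 and 43.2 CPM, with a log2 ratio of -0.11.

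IFN-activated-like cells carry a type I interferon response in their leading genes, yet none of the 9 receptor genes was called by edgeR, where 3.04% of all genes were higher and 0.139% lower. Only Ifngr1 had an unadjusted p under 0.05 (0.038, log2 -0.30), and DESeq2 called none. Ifnar1 was at 54.3 CPM in Igκ-BCL2, 54.6 in 3′RR-BCL2 and 60.7 in WT, and Ifnar2 at 28.4, 40.9 and 33.2. The log2 ratios of the pair were -0.18 ± 0.15 and -0.29 ± 0.18. In the same cells 3 of 8 STAT factors and 7 of 9 tested interferon gamma response genes were higher, and none was lower.

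Plasma-marker barcodes, those with at least 4 of 13 plasma cell markers after thinning to 2000 UMIs, were a mixture. Of them 36.5% in Igκ-BCL2, 59.5% in 3′RR-BCL2 and 14.1% in WT held at least 2 GC genes. In all plasma-marker barcodes together, 4 of 9 receptor genes were lower than in resting-like cells, where 11.1% of all genes were lower, namely Il10ra (log2 -0.84), Il2rg (-0.77), Ifngr2 (-0.64) and Ifngr1 (-0.56). Without the 3′RR-BCL2 library none of the 4 was called (adjusted p 0.076 to 0.26), and Ifngr1 was not called without Igκ-BCL2 either (0.053). Il10rb (-0.43, adjusted p = 0.075) was called without WT (-0.66, adjusted p = 0.0090). A stricter set, chosen after seeing the data, took those with at least 20% immunoglobulin UMIs and left 12 barcodes in Igκ-BCL2, 6 in 3′RR-BCL2 and 5 in WT. Their immunoglobulin share was 43.1% to 53.8%, so their levels are given as CPM of the other UMIs.

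In these 23 immunoglobulin-rich barcodes, with 292421 other UMIs in all, the receptor genes split in another way. Ifnar2, the type I interferon receptor chain, was at 132 CPM in Igκ-BCL2, 125 in 3′RR-BCL2 and 116 in WT, from 19, 10 and 8 UMIs, against 44.8, 41.1 and 44.8 in resting-like cells on the same scale. Pooled over the libraries it was 2.89 times as high as in resting-like cells (95% counting interval 2.03 to 3.99). Its partner Ifnar1 had 12 UMIs and a ratio of 0.598 (0.309 to 1.05), and 10 of the 12 were in Igκ-BCL2. Il4ra had 2 UMIs, both in Igκ-BCL2, and a ratio of 0.0635 (0.00769 to 0.229), and Il21r had 7 and a ratio of 0.134 (0.0539 to 0.277). Il2rg kept 42 UMIs and a ratio of 0.412 (0.297 to 0.557). The ratio was 0.659 (0.376 to 1.07) for Il10rb, 0.24 (0.0655 to 0.616) for Il10ra, 0.243 (0.079 to 0.568) for Ifngr1 and 0.232 (0.0752 to 0.541) for Ifngr2. All UMIs of Il10ra and Ifngr1 and 4 of 5 of Ifngr2 came from Igκ-BCL2. These intervals cover counting error only. With immunoglobulin UMIs counted in, every pooled ratio would be lower. The barcodes held a median of 22618 UMIs in Igκ-BCL2, 26736.5 in 3′RR-BCL2 and 23904 in WT. In all 23, Il2rg gave 42 UMIs, Il10rb 16 and Ifnar1 12, against 182, 42.9 and 35.8 per 100 resting-like cells. Il4ra gave 2 and Il21r 7, against 56.3 and 94.7. A lower share of RNA is thus not always fewer molecules per cell. In the edgeR fit with these barcodes in place of all plasma-marker barcodes, Ifnar2 was higher than in resting-like cells (log2 1.69, adjusted p = 1.6e-05), and Il21r (-2.78, adjusted p = 9.4e-09) and Il4ra (-3.82, adjusted p = 9.2e-07) were lower, where the fitted value of Il4ra depends on the prior count because it rests on 2 UMIs.

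In order of mean level over the libraries, GC-like cells came first for Il21r and Il4ra, transitional-like cells for Ifnar1, marginal zone-like cells for Ifnar2, and resting-like cells for the other 5 genes. For Il21r, GC-like cells did not overlap the stage that followed, resting-like cells at 176.5 ± 8.49 CPM (SD, n = 3 libraries), while the stages from resting-like down to marginal zone-like, at 122 ± 8.75, each overlapped their neighbor in the order. For Il4ra the first places, GC-like at 118 ± 21 and resting-like at 105 ± 4.6, overlapped, and IFN-activated-like cells at 88.8 ± 4.37 did not overlap resting-like. Dividing-like cells came last for 7 genes and marginal zone-like cells for Il4ra and Il21r. Ifnar2 held nearly one level, at 41 to 43 on average, in marginal zone-like, resting-like, transitional-like and activated-like cells, and was at 18.5 ± 3.97 in GC-like cells.

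Another 272 cells, led by Syne1, formed a low-UMI GC-like cluster. In it Il21r was at 206 CPM in Igκ-BCL2, 308 in 3′RR-BCL2 and 234 in WT, and Il4ra at 143, 156 and 81. Il21r lay above its resting-like level in all 3 libraries, and Il4ra in both BCL2 libraries only. The counting interval of the log2 ratio left out 0 in 3′RR-BCL2 for Il21r (0.60 to 1.09) and Il4ra (0.29 to 0.97). It included 0 for Il21r in Igκ-BCL2 (-0.23 to 0.50) and WT (-0.18 to 0.99). For Il4ra it included 0 in Igκ-BCL2 (-0.019 to 0.87) and WT (-1.56 to 0.49). The WT sum of this cluster rested on 22 cells.

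Within a stage, the question of the design was whether a BCL2 library differed from WT. With 1 library each there is no test, and a gene was counted when its exact 95% counting interval left out 1 and the ratio was at least 1.5 either way. None of the 9 receptor genes met this rule in GC-like cells, where 11.9% of genes did for Igκ-BCL2 and 8.8% for 3′RR-BCL2, nor in resting-like cells, where 9.64% and 5.25% did. In GC-like cells the interval left out 1 for Il4ra only. Its ratio to WT was 1.32 (1.03 to 1.71) in Igκ-BCL2 and 1.43 (1.13 to 1.84) in 3′RR-BCL2, both set against the same 77 WT UMIs. Il21r was at a ratio of 1.10 (0.929 to 1.31) in Igκ-BCL2 and 1.03 (0.871 to 1.22) in 3′RR-BCL2, and Il2rg at 0.887 (0.718 to 1.10) and 1.02 (0.839 to 1.26). For Il10ra, Il10rb, Ifngr1, Ifngr2, Ifnar1 and Ifnar2 the WT sums held 18 to 39 UMIs, and their intervals, which all included 1, lay between 0.355 and 1.79, so that smaller differences were not detectable at this depth. With classes made from markers alone these ratios moved in GC-like cells. On the log2 scale, Igκ-BCL2 and 3′RR-BCL2 were then at 0.77 and 0.99 over WT for Il2rg, 1.30 and 1.31 for Ifngr2, 1.02 and 1.29 for Ifnar1, and -1.66 and -1.38 for Ifnar2. In the main classes they were at -0.17 and 0.03 for Il2rg, -0.32 and -0.42 for Ifngr2, and -0.33 and 0.01 for Ifnar1. Those of Il4ra were 0.39 and 0.40.

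In the smaller stages some receptor genes met the rule, also as a description with no test. Among those with at least 20 UMIs in a library, the genes to which the shares of all genes below refer, 3 of 9 were lower in plasma-marker barcodes of Igκ-BCL2, where 18.1% of genes met the rule, and 3 of 9 in those of 3′RR-BCL2, where 17.5% did. Il2rg had ratios of 0.522 (0.41 to 0.664) and 0.496 (0.396 to 0.622), and Il10ra of 0.549 (0.306 to 0.983) and 0.31 (0.163 to 0.578). Il4ra met it in Igκ-BCL2 at 0.603 (0.411 to 0.885) and Il10rb in 3′RR-BCL2 at 0.364 (0.23 to 0.572). The 2 libraries also held more barcodes with GC genes in this class than WT did, as given above, and the part of this in the ratios was not tested. In dividing-like cells, where 15.4% of genes met the rule in either comparison, Il2rg did at 0.247 (0.0963 to 0.53) in Igκ-BCL2, from 7 UMIs, and 0.536 (0.391 to 0.733) in 3′RR-BCL2, and Il21r at 1.77 (1.17 to 2.64) in Igκ-BCL2. In marginal zone-like cells only Ifngr2 in 3′RR-BCL2 did, at 0.661 (0.527 to 0.824), where 4.89% of genes met it, against 8.53% for Igκ-BCL2. In the low-UMI GC-like cluster only Il2rg in Igκ-BCL2 did, at 0.544 (0.317 to 0.95), where 16% of genes met it, against 12% for 3′RR-BCL2. None of the 9 did in transitional-like cells, where 8.31% of genes met it for Igκ-BCL2 and 5.55% for 3′RR-BCL2, in activated-like cells (7.08% and 5.44%) or in IFN-activated-like cells (8.53% and 6.38%).

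**Figure D3:**
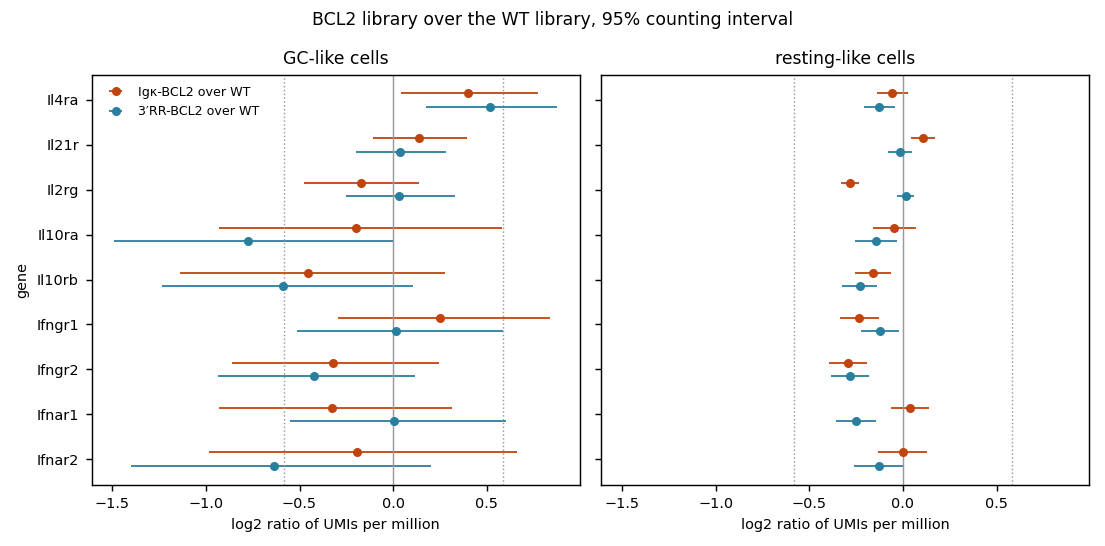
Log2 ratio of CPM in each BCL2 library over WT (horizontal axes, bars are exact 95% counting intervals, dotted lines at a ratio of 1.5 either way) for the 9 receptor genes (vertical axis), in GC-like and resting-like cells. In GC-like cells Il4ra alone has both intervals above 0, and in resting-like cells all points lie within the dotted lines.

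In resting-like cells the sums were deep enough to resolve small ratios. Ifngr2 was at 65.1 CPM in Igκ-BCL2 and 65.6 in 3′RR-BCL2, against 79.7 in WT, ratios of 0.816 (0.76 to 0.876) and 0.823 (0.767 to 0.882). Il10rb, at 78.1 and 74.3 against 87.3 in WT, had ratios of 0.895 (0.838 to 0.956) and 0.852 (0.797 to 0.91), and Ifngr1, at 62.4 and 67.4 against 73.3, had 0.851 (0.791 to 0.916) and 0.919 (0.856 to 0.985). Both BCL2 libraries were thus lower for these 3 genes, by intervals that excluded equal levels. Only in 3′RR-BCL2 did this hold for Il4ra (0.916, 0.865 to 0.97) and Il10ra (0.905, 0.836 to 0.98), also lower. Il21r was higher than in WT in Igκ-BCL2 only (1.08, 1.03 to 1.13). The share of all genes with such intervals, without the limit on the ratio, was not counted. These small ratios therefore have no background of all genes beside them. The resting-like cells of the libraries differed in other ways too, since the heat shock gene Hspa1a was at 562.6 CPM in Igκ-BCL2 and 247 in 3′RR-BCL2, against 1.16 in WT, Jchain at 16.1 and 12.7 against 2.19, and Lyz2 at 2.49 and 21.7 against 69.8. The part of these in the result was not tested. Il2rg was lower in Igκ-BCL2 (0.821, 0.794 to 0.849) and close to WT in 3′RR-BCL2 (1.01, 0.98 to 1.04). Igκ-BCL2 and WT, which differed in this X-linked gene, both lacked Xist beyond a few UMIs. The cause of this difference was not tested. Ifnar1 showed the opposite order, at 1.03 (0.956 to 1.10) in Igκ-BCL2 and 0.841 (0.781 to 0.906) in 3′RR-BCL2. Both BCL2 libraries are compared with the same WT cells, and variation between mice is not covered by these intervals.

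None of the JAK kinases fell in GC-like cells. Of 4 JAK genes, 1 was higher and none lower, where 23.6% of all genes tested were higher and 21.1% lower. Their median log2 ratio was 0.18. Jak1, the kinase of most of these receptors, was at 338 ± 66.2 CPM in GC-like cells and 339 ± 29.2 in resting-like cells (SD, n = 3 libraries each), with a log2 ratio of 0.02. Jak2 rose (0.34 ± 0.13, edgeR adjusted p = 0.026). Of 8 STAT factors, beside the same shares of all genes, 1 was higher and 4 lower, with a median of -0.29. Stat4 (-1.50 ± 0.19, edgeR adjusted p = 6.8e-08) and Irf9 (-0.85 ± 0.12, edgeR adjusted p = 3.2e-08), the partner of STAT2 in the type I interferon response, fell most. Stat3, at 83.9 ± 12.2 CPM in GC-like cells and 78 ± 6.44 in resting-like cells, did not pass the test. Named after their values were seen, Stat6, which IL-4 activates, fell to 40.3 ± 7.41 CPM in GC-like cells, against 56.8 ± 1.76 in resting-like cells (-0.40 ± 0.12, edgeR adjusted p = 0.0050), and Stat2 fell as well (-0.53 ± 0.13, edgeR adjusted p = 4.2e-04).

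**Figure D4:**
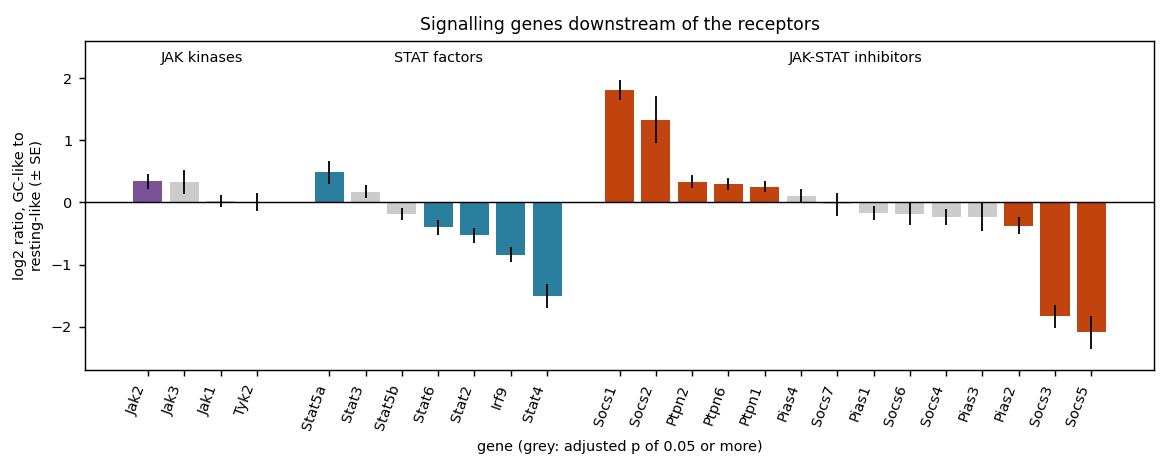
Log2 ratio of GC-like to resting-like cells (vertical axis, edgeR, bars ± SE) for JAK kinases, 7 STAT factors and inhibitors of the pathway (horizontal axis), colored where the adjusted p was under 0.05 and grey otherwise. Socs1 is at 1.80 and Socs3 at -1.84, whereas Jak1 is at 0.02.

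Of 14 tested inhibitors of the pathway, 5 were higher and 3 lower in GC-like cells, with a median of -0.10. Of all genes tested, 23.6% were higher and 21.1% lower in these cells. Socs5 (-2.09 ± 0.26, edgeR adjusted p = 2.0e-09) and Socs3 (-1.84 ± 0.18, edgeR adjusted p = 1.1e-11), the second of them a product of STAT3 signaling, fell. Ptpn6, the phosphatase SHP-1, rose to 327 ± 23.9 CPM in GC-like cells, against 269 ± 18.1 in resting-like cells (0.30 ± 0.10, edgeR adjusted p = 0.015), and Ptpn1 rose by 0.25 ± 0.09 (adjusted p = 0.023). Socs1, an inhibitor of JAK1 and JAK2 that was named after its values were seen, rose to 49 ± 11.3 CPM in GC-like cells, against 13.4 ± 3.67 in resting-like cells (1.80 ± 0.16, edgeR adjusted p = 8.6e-14).

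Of 28 other cytokine receptor chains 16 passed the filter. In GC-like cells 3 of these were higher and 9 lower, where 23.6% of all genes tested were higher and 21.1% lower. The median log2 ratio of the 16 chains was -0.61. Il5ra (-1.60 ± 0.30, edgeR adjusted p = 3.5e-05) and Il27ra (-1.55 ± 0.19, edgeR adjusted p = 3.1e-09), receptor chains of IL-5 and IL-27, had the lowest ratios. Tgfbr2, the type II chain of the TGF-beta receptor, fell to 100.1 ± 6.76 CPM in GC-like cells, against 157 ± 6.69 in resting-like cells (-0.62 ± 0.10, edgeR adjusted p = 2.6e-07), and Il17ra did not pass the test (-0.05). The difference between the lists was not tested. Of 10 ligand genes, none passed the filter. Il4 and Il21 had no UMI in GC-like or resting-like cells, which allows up to 0.355 CPM in GC-like and 0.0444 in resting-like cells.

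Genes known to respond to these cytokines were called in both directions. Of all genes tested in GC-like cells, 23.6% were higher and 21.1% lower. Of 7 tested STAT6 response genes in GC-like cells, 4 were higher and 2 lower, with a median of 0.68. Bcl2l1 (1.64 ± 0.30, edgeR adjusted p = 9.7e-06), the survival gene of BCL-XL, and Nfil3 (1.43 ± 0.26, edgeR adjusted p = 4.5e-05) rose, whereas H2-Aa, an MHC class II chain, fell by 0.46 ± 0.09 (edgeR adjusted p = 2.0e-05). H2-Ab1 was at -0.14 and did not pass. Of 6 STAT3 response genes, 1 was higher and 3 lower. Pim1 rose (0.56 ± 0.14, edgeR adjusted p = 0.0014), and Socs3, Bcl3 (-0.72) and Junb (-0.37) fell. Of 9 tested interferon gamma response genes, 4 were higher and 1 lower, with Icam1 at 1.18 ± 0.11 (edgeR adjusted p = 1.2e-12) and Gbp7 at -2.40 ± 0.48 (edgeR adjusted p = 1.8e-04). Psmb8, a subunit of the immunoproteasome, rose by 0.56 ± 0.10 (edgeR adjusted p = 2.4e-06), and Ciita was at 0.03 and did not pass.

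Likeness of pattern was described by Pearson's r over 27 sums of 9 named stages in 3 libraries, which share libraries and depth. Il4ra and Il21r had r = 0.78 with each other and no r above 0.05 with any of the other 7 members. Il2rg and Il10rb had r = 0.93, and the neighbors Ifnar2 and Il10rb r = 0.92. Among 8752 genes, Il4ra was most like Sorl1 (0.87) and Zfp608 (0.82), and Il21r most like Senp6 (0.81) and Zfp608 (0.79). Il2rg was most like Vps37b (0.95) and Cd84 (0.95), Il10ra like Ralgps2 (0.91) and Stk24 (0.89), and Il10rb like Nrros (0.95) and Snn (0.94). Ifngr1 was most like AU041133 (0.81) and Cracr2a (0.79), and Ifngr2 like Grap2 (0.92) and Iqsec1 (0.91). Ifnar1 was most like Glcci1 (0.93) and Ccr7 (0.91), a chemokine receptor gene on the list of resting markers, and Ifnar2 like Sub1 (0.95) and Nrros (0.93).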

How the data were processed

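The authors processed reads with Cell Ranger 6.1.1, per the deposited labels, which name mm10 and hg38, and deposited whole UMI counts per gene for barcodes called as cells. All counted genes are mouse genes, so human BCL2 is not analysed here. The receptor genes and gene lists were chosen with earlier results of these data known.

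Following the study, cells were kept if they had 800 to 4500 genes, no more than 20000 UMIs, no more than 8% of them mitochondrial, 10% or more from ribosomal protein genes, and under 2 UMIs of Cd3 or C1q genes. Seurat 5.3.0 with sctransform 0.4.2 (R 4.3.3) integrated the libraries with 3000 features and 30 correlation components, and 2826 features were used for clusters after leaving out immunoglobulin genes, mouse Bcl2, the receptors and the lists. Clustering took 12 principal components and 30 neighbors (resolution 0.2). The planned rule divided the dividing cells, so the cluster next richest in GC genes was also divided (10 components, 15 neighbors), a step added after seeing the data. Scrublet (scanpy 1.11.5) marked 0, 0 and 1 barcodes and was of no use for doublets, which were not removed. Plasma-marker barcodes had no upper limit on UMIs or genes and no minimum of ribosomal UMIs.

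Stage sums (39, with 24 residual degrees of freedom) were tested in edgeR 4.0.16 with TMM and a library block at an adjusted p of 0.05. The libraries are the replicates and differ in genotype, and cells are not replicates. No test was made between genotypes. Ratios and levels carry exact Poisson intervals at 95% that cover counting error only, for genes with at least 20 UMIs in either library in the case of the background shares. Total counts per library were 37433924 UMIs in Igκ-BCL2, 45539172 in 3′RR-BCL2 and 62777659 in WT. Likeness used genes with at least 500 UMIs and log2 with 1 added. The edgeR fit and the intervals were checked on simulated data. Named list genes are the 2 of highest level in resting-like cells and the 2 of largest absolute ratio among those past the test, per list. A gene that this rule names is not reported here. Python 3.11.15, numpy 2.4.6, scipy 1.17.1 and pandas 2.3.3 were used, and DESeq2 1.42.0 served as an alternative. Other alternatives were RLE scaling, no filter on low counts, no block, each library left out, a resolution of 0.4, no integration, removal of the 5% highest doublet scores, classes from markers alone, other denominators, a minimum of 50 UMIs and stricter plasma rules.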

Additional observations from a re-analysis of the deposited data

Results flagged for a closer look

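For Il4ra, the IL-4 receptor chain, log2 ratios to resting-like cells were above 0 in both BCL2 libraries and below 0 in WT. Its log2 ratio of GC-like to resting-like cells was 0.24 in Igκ-BCL2 and 0.43 in 3′RR-BCL2, against -0.22 in WT. In the low-UMI GC-like cells it was 0.44 in Igκ-BCL2 (counting interval -0.019 to 0.87) and 0.64 in 3′RR-BCL2, against -0.43 in WT. The counting intervals of both WT ratios included 0 (-0.56 to 0.11 and, on 9 UMIs, -1.56 to 0.49), and per 100 cells WT Il4ra gave 90.6 UMIs in GC-like and 59.7 in resting-like cells. Ifngr2 in the low-UMI GC-like cells was at -0.66 in Igκ-BCL2 and -1.17 in 3′RR-BCL2, against 0.022 in WT, from 13, 14 and 9 UMIs. Its counting interval included 0 in Igκ-BCL2 (-1.57 to 0.12) and WT (-1.11 to 0.95), and was -2.05 to -0.42 in 3′RR-BCL2. These differences between genotypes were not tested, as there was 1 library each, and the WT ratios rest on 85 GC-like and 22 low-UMI GC-like cells.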

How the results depend on the processing

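Of the receptor gene contrasts between stages recomputed under alternatives, 61 lost the call and 16 gained one. Another 3 changed sign and were called in the main or the alternative analysis. The other 658 kept their call or stayed uncalled, and a change of sign among uncalled ones was not counted. In GC-like cells the 7 lower genes kept their call in 12 of 12 alternatives. Il21r lost its call without a filter on low counts (adjusted p = 0.084), without the library block (0.088) and without Igκ-BCL2 (0.057), and Il4ra was called without WT (0.0082) and without integration (0.030). The rise of Ifnar1 in transitional-like cells was lost in 6 alternatives. The counted changes of sign were in Il2rg and Ifnar2. Il2rg was at 0.028 in activated-like cells with markers alone. Ifnar2, at -0.16 in all plasma-marker barcodes, was at 1.31 (edgeR adjusted p = 0.0039) with at least 6 markers. With at least 20% immunoglobulin it was at 1.69 (edgeR adjusted p = 1.6e-05). With at least 6 markers Il4ra went to -4.80 (adjusted p = 2.8e-07) and Il21r to -1.99 (3.5e-06), against -0.23 and -0.07. That set held 12 barcodes in Igκ-BCL2, 5 in 3′RR-BCL2 and 4 in WT. Il4ra was in it at 0 CPM in Igκ-BCL2 and WT and at 9.27 in 3′RR-BCL2, so that its fitted value depends on the prior count. Of the ratios of a BCL2 library to WT, 14 moved, each with markers alone, and 112 did not. As means over cells, Il4ra and Il21r in plasma-marker barcodes were at log2 ratios of 0.050 and 0.029. The causes were not tested.

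Counts of all genes called moved more. Without the library block 357 were higher and 384 lower in transitional-like cells (920 and 986 with it), 455 and 400 in marginal zone-like cells (942 and 918 with it), and 1 lower in IFN-activated-like cells (14 with it). With markers alone, which leave fewer cells, 92 were higher and 28 lower in transitional-like, 446 and 333 in marginal zone-like, and 342 and 71 in activated-like cells (2323 and 2557 in the main analysis). Without a filter 72 were lower in IFN-activated-like cells. In plasma-marker barcodes 780 were higher with at least 6 markers and 1007 with at least 20% immunoglobulin, against 1633. With 1 library left out, the counts ranged between 426 and 665 higher and 423 and 697 lower in transitional-like cells, 591 and 765 higher and 422 and 641 lower in marginal zone-like cells, 6 and 11 lower in IFN-activated-like cells, 1197 and 1900 lower in GC-like cells, 1366 and 2010 lower in dividing-like cells, and 595 and 1602 higher and 251 and 1090 lower in plasma-marker barcodes.

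No paired analysis was possible because each genotype had 1 library and no library has a counterpart in another genotype. The tests of stages hold the library as a block. Clustering without integration gave no transitional-like, activated-like or IFN-activated-like class, and a resolution of 0.4 gave no IFN-activated-like class. The 85 WT GC-like cells limit each comparison with WT in that stage.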

Other observations

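The clusters that were left without a stage name gave further levels. The heat shock-led cells (1017 in Igκ-BCL2, 823 in 3′RR-BCL2 and 350 in WT) were at 99.9 CPM of Il4ra in Igκ-BCL2, 104.2 in 3′RR-BCL2 and 98.8 in WT, and at 285, 407 and 389 of Il2rg. The Apoe-led and Rgs1-led cells held GC genes in 25.5% to 51.3% of cells in both BCL2 libraries and in at most 0.403% in WT. In the Apoe-led cells Il4ra was at 123 CPM in Igκ-BCL2 and 138 in 3′RR-BCL2, against 99.4 in WT, and in the Rgs1-led cells at 121 and 133, against 94.1 in WT.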
